A study of Mus musculus with 30 samples.

Results

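The enzymes that write and erase DNA methylation were followed in the descending thoracic aorta of male mice with vascular Ehlers-Danlos syndrome (VEDS) and of controls. The members were the 7 genes *Dnmt1*, *Dnmt3a*, *Dnmt3b*, *Tet1*, *Tet2*, *Tet3* and *Tdg*, taken by name from the 26253 genes listed in bulk RNA-seq of 30 aortas. VEDS mice carried a heterozygous missense mutation in *Col3a1*, which encodes the chain of type III collagen, on a C57BL/6J background, and controls were *Col3a1*+/+. VEDS mice received hydralazine with bicalutamide (HB, 3 libraries), hydralazine with spironolactone (HS, 3), hydralazine alone (6) or no drug (6), and controls received hydralazine (6) or no drug (6). Every treated group drank hydralazine, a blood pressure lowering vasodilator, from birth at 32 mg/kg/day. Bicalutamide, an androgen receptor antagonist, at 50 mg/kg/day, or spironolactone, a mineralocorticoid and androgen receptor antagonist, at 100 mg/kg/day, was added in chow from day 21. HB and HS aortas were all collected on day 60. The hydralazine and untreated groups mix aortas of day 30 and day 60, and no label says which library had which age. Each aorta was cleaned of the fat around it, and 1 aorta gave 1 library.

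DNA methyltransferases add a methyl group to cytosine, mostly at CpG dinucleotides. *Dnmt1* copies existing methylation onto the new strand after replication, while *Dnmt3a* and *Dnmt3b* set new marks. The TET dioxygenases oxidise methylcytosine, and the glycosylase encoded by *Tdg* cuts out the more oxidised bases, which base excision repair then replaces with plain cytosine. Hydralazine has been described as lowering DNA methyltransferase expression in human T cells, so the comparison of treated with untreated aortas was the main question here. Only transcript levels were measured, and neither enzyme activity nor methylation was.

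Total counts per library ranged from 5517510 to 8293289. Levels of a gene are given as CPM, its count relative to the library total after scaling by the trimmed mean of M-values (TMM), and genes are compared with each other on the deposited TPM, which accounts for transcript length. *Col3a1* split the libraries into 12 at 13568 to 17690 CPM and 18 at 4316 to 7710 CPM. Each hydralazine and each untreated group had 3 libraries above that gap and 3 below, while all 3 HB and all 3 HS libraries lay below it. Over all libraries, summed CPM of 6 smooth muscle markers was 15424 to 29091. On the same measure, 6 fibroblast markers gave 2417 to 7393, 8 hepatocyte markers 96.9 to 16115 and 6 cardiomyocyte markers 4.11 to 705. Fat cell transcripts remained after cleaning, with 8 adipocyte markers at 253 to 1338.5 and 6 brown adipocyte markers at 180 to 1257. None of these markers was at 0 in every library. In bulk tissue, fewer cells of a type and less RNA per cell cannot be told apart.

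The promoters of the 3 members with the highest level per length, 1 for each role, are shown to place the genes and their own CpG content. They come from RefSeq on GRCm38.p6, a different build from the mm39 of the counts, and run from 250 bases before to 50 after a transcription start. Capitals mark CpG dinucleotides.
Dnmt1 (maintenance, chr9:20952574-20952873, minus strand): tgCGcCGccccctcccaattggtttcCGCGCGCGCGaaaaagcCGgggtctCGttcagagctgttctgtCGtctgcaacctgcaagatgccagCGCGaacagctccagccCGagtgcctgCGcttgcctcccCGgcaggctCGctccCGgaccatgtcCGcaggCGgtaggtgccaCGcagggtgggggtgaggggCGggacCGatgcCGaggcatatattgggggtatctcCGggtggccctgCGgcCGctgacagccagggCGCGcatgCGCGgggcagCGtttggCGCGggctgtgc
Dnmt3a (new marks, chr12:3806730-3807029, plus strand): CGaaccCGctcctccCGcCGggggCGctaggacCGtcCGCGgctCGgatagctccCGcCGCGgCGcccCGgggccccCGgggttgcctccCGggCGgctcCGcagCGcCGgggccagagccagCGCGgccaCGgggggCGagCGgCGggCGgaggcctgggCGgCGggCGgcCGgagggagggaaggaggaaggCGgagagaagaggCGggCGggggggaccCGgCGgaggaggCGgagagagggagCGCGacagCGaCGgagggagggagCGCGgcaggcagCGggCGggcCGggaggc
Tet2 (erasure, chr3:133544341-133544640, minus strand): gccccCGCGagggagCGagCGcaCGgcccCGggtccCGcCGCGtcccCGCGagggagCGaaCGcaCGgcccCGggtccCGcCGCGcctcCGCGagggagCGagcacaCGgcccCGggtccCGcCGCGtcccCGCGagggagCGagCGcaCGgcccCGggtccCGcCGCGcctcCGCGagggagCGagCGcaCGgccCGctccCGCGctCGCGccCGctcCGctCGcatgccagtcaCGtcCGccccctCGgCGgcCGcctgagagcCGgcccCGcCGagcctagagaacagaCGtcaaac
These windows held 33 CpG in *Dnmt1*, 46 in *Dnmt3a* and 57 in *Tet2*, against a median of 7 over 32851 promoters. *Dnmt1* and *Dnmt3a* each had 2 further windows, with 12 and 2 CpG in *Dnmt1* and 47 and 18 in *Dnmt3a*, so the *Dnmt1* window shown is the richest of its gene and another lay below that median. All 7 members matched the table, with 11 windows, of which 7 had a GC content over 50% and a CpG observed over expected above 0.6, a pattern that 33.3% of all promoters showed. The *Tet3* window, with 22 CpG at an observed over expected of 0.576, fell just short of it. The motif TTTNGCGC, searched on both strands, occurred in the *Dnmt1* window printed here and in no other member window, and 1.38% of all promoters held it.

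*Dnmt3a* had the highest level of the 7 members and *Dnmt3b* the lowest. Over the 30 libraries *Dnmt3a* averaged 10.8 ± 2.72 TPM (SD, n = 30), and it exceeded *Tet2*, the next gene, in 30 of 30 libraries. *Tet2* averaged 6.39 ± 0.705 TPM and exceeded *Dnmt1*, at 4.96 ± 0.863 TPM, in 29 of 30. The other erasers lay close together, with *Tet1* at 4.21 ± 1.31, *Tet3* at 4.08 ± 0.901 and *Tdg* at 4.05 ± 0.963 TPM. *Dnmt1* exceeded *Tet1* in 23 of 30 libraries, *Tet1* exceeded *Tet3* in 17 and *Tet3* exceeded *Tdg* in 18, so the order within this trio did not stand apart from its spread. *Dnmt3b* averaged 0.667 ± 0.205 TPM, below *Tdg* in 30 of 30, and rested on 9 to 48 counts a library. *Dnmt3a* thus supplied 65.3% ± 3.38 of the summed methyltransferase TPM, *Dnmt1* 30.6% ± 3.53 and *Dnmt3b* 4.06% ± 0.900 (SD, n = 30). Among the TET genes *Tet2* supplied 44.2% ± 4.41, *Tet1* 28.1% ± 4.68 and *Tet3* 27.7% ± 3.03. By group the *Dnmt3a* share averaged 63.7% in HB, 65.0% in HS, 65.0% in hydralazine VEDS, 64.5% in untreated VEDS, 66.5% in hydralazine control and 66.4% in untreated control aortas. *Tdg* counts were not whole in 29 of 30 libraries, so some of its reads were shared with other loci and its level is uncertain to that extent, whereas the other 6 members had whole counts throughout.

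**Figure D1:**
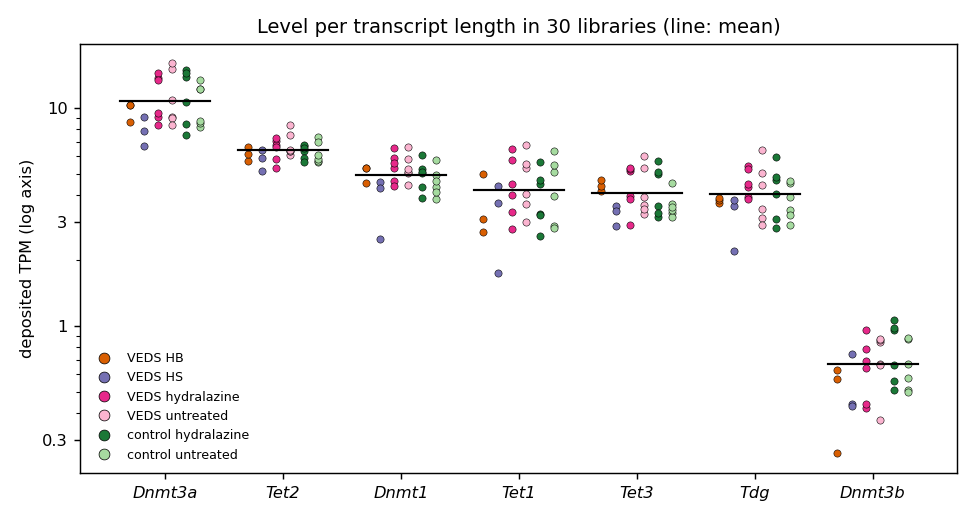
Deposited TPM (log axis) of each member in the 30 libraries, coloured by group, with a line at the mean. *Dnmt3a* averaged 10.8 TPM and *Dnmt3b* 0.667 TPM, with the other 5 members between 4.05 and 6.39 TPM.

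No methyltransferase was called with hydralazine, in either genotype or over both. *Dnmt1* had 39.0 to 49.4 CPM (median 44.3, n = 6) in hydralazine VEDS aortas, against 38.4 to 47.0 CPM (median 44.3, n = 6) in untreated VEDS aortas. In controls it had 35.2 to 46.5 CPM (median 39.3) with hydralazine, against 35.1 to 48.6 CPM (median 38.7) without. Treated and untreated aortas overlapped over nearly their whole range in both genotypes. With both genotypes in 1 fit, the change of *Dnmt1* with hydralazine was -1.04%, with a 95% interval of -8.89% to 7.49% (log2 fold change -0.02 ± 0.06 SE, adjusted p = 0.946). The lower end of that interval was the largest fall in *Dnmt1* it allowed.

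*Dnmt3a* varied far more from library to library but differed little between group medians. It had 135 to 197 CPM (median 169) in hydralazine VEDS aortas, against 126 to 223 CPM (median 157) in untreated VEDS aortas. Control aortas had 119 to 216 CPM (median 169.8) with hydralazine, against 127 to 214 CPM (median 167) without. The 4 ranges lay over each other, and the joint change was -0.234%, with a 95% interval of -15.4% to 17.6% (log2 fold change -0.0034 ± 0.12 SE, adjusted p = 0.995). *Dnmt3b* had 2.65 to 5.47 CPM (median 3.96) in hydralazine VEDS aortas, against 2.59 to 5.22 CPM (median 4.32) in untreated VEDS aortas. In controls it had 3.42 to 5.90 CPM (median 4.75) with hydralazine, against 3.10 to 5.78 CPM (median 4.10) without. Its joint change was -1.76%, with the widest interval of the 3 writers, -20.6% to 21.6%, as its counts were the lowest (adjusted p = 0.967).

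**Figure D2:**
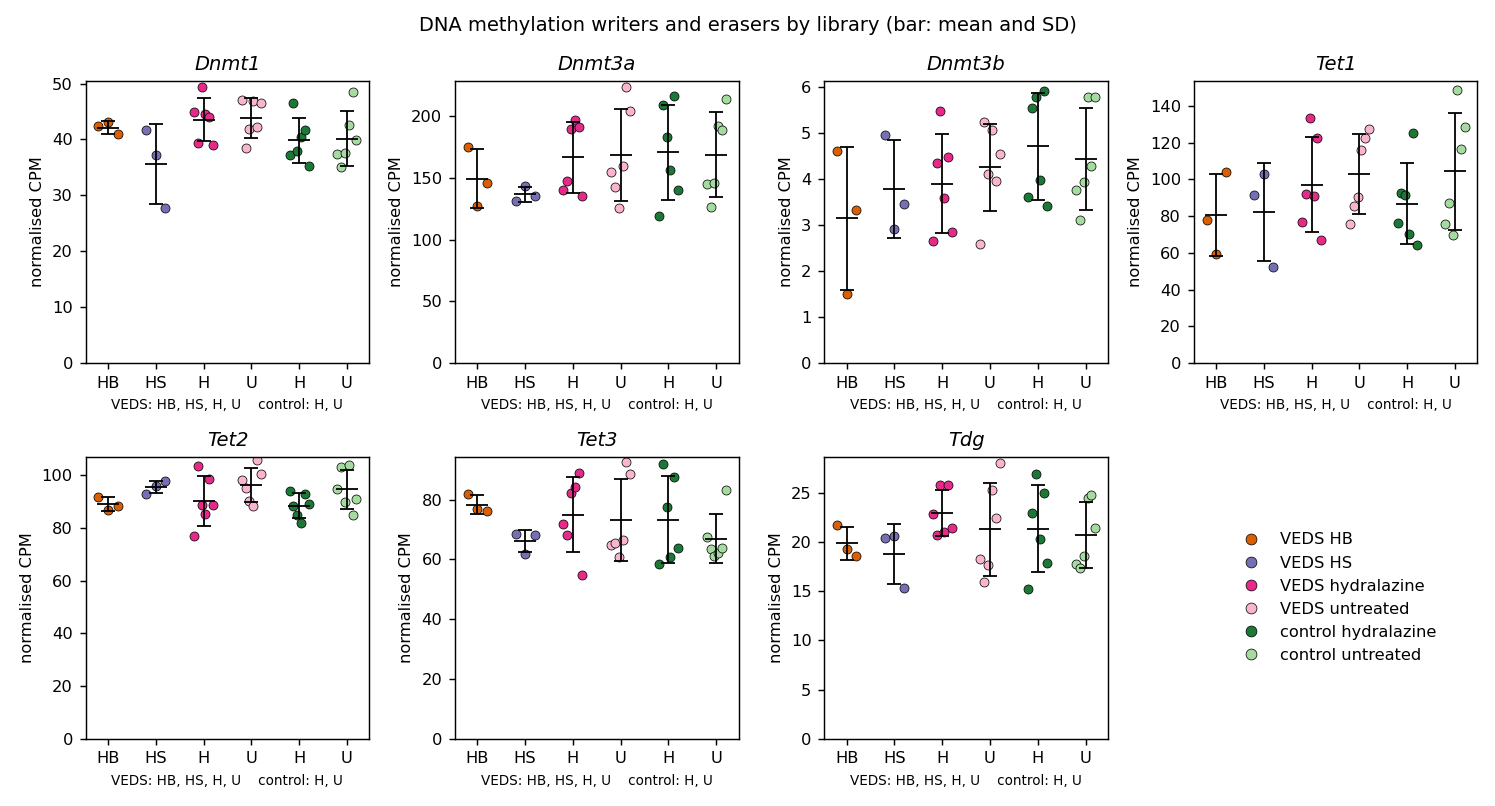
Normalised CPM of each member (vertical axes, from 0) by group, with 1 point per library and a bar for the mean and SD. HB and HS are hydralazine with bicalutamide and with spironolactone (n = 3 each), H is hydralazine and U untreated (n = 6 each). For every member the H and U libraries of a genotype overlap.

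Of the erasers, *Tet2* and *Tet1* had lower estimates with hydralazine, neither past the test. *Tet2* had 77.0 to 104 CPM (median 88.7) in hydralazine VEDS aortas, against 88.2 to 106 CPM (median 96.7) in untreated VEDS aortas. In controls it had 81.8 to 94.0 CPM (median 88.7) with hydralazine, against 85.0 to 104 CPM (median 92.8) without. *Tet2* was the steadiest member, with a coefficient of variation of 7.45% over 30 libraries, so its joint change of -6.65% had a narrow interval, -12.6% to -0.337%. Its p was 0.0401 before adjustment and 0.417 after it over 13235 genes, and 11.1% of all genes had an unadjusted p under 0.05 in that fit.

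*Tet1* spread the most among the abundant members. It had 67.1 to 133 CPM (median 91.5) in hydralazine VEDS aortas, against 75.9 to 128 CPM (median 103) in untreated VEDS aortas. Control aortas had 64.2 to 125 CPM (median 84.1) with hydralazine, against 69.6 to 149 CPM (median 102) without. The joint change was -11.8%, with an interval of -28.2% to 8.46% (log2 fold change -0.18 ± 0.14 SE, adjusted p = 0.694). *Tet3* had 54.7 to 89.0 CPM (median 77.0) in hydralazine VEDS aortas, against 60.9 to 92.5 CPM (median 66.1) in untreated VEDS aortas. In controls it had 58.3 to 92.0 CPM (median 70.7) with hydralazine, against 61.3 to 83.1 CPM (median 63.7) without, and its joint change was 5.77% (-7.67% to 21.2%, adjusted p = 0.798). *Tdg* had 20.7 to 25.8 CPM (median 22.1) in hydralazine VEDS aortas, against 16.0 to 28.0 CPM (median 20.3) in untreated VEDS aortas. In controls it had 15.2 to 26.9 CPM (median 21.6) with hydralazine, against 17.4 to 24.8 CPM (median 20.0) without, and its joint change was 5.16% (-9.07% to 21.6%, adjusted p = 0.839).

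Across these fits 0 of 7 members were called by edgeR's quasi-likelihood test at an adjusted p of 0.05 or less. With hydralazine, 0 of 13006 genes were called in VEDS (0%), 0 of 12951 in controls (0%) and 1 of 13235 over both genotypes (0.00756%). The members' count of 0 thus did not set them apart from other genes. Age was not modelled, so the spread in these fits includes any difference between ages. With a cell cycle score as covariate the joint fit called 230 genes. At an unadjusted p under 0.05 there were 589, 1230 and 1470 genes in these fits, and DESeq2 called 2, 3 and 56, none of them a member. The 1 gene called over both genotypes, named here after its value was seen, was *Ddr1*, a collagen receptor, which was higher with hydralazine (log2 fold change 0.42 ± 0.07 SE, adjusted p = 0.0196). That call was lost without any 1 of 5 libraries, namely hydralazine VEDS replicate 1, untreated VEDS replicate 4, hydralazine control replicates 2 and 5 and untreated control replicate 2.

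**Figure D3:**
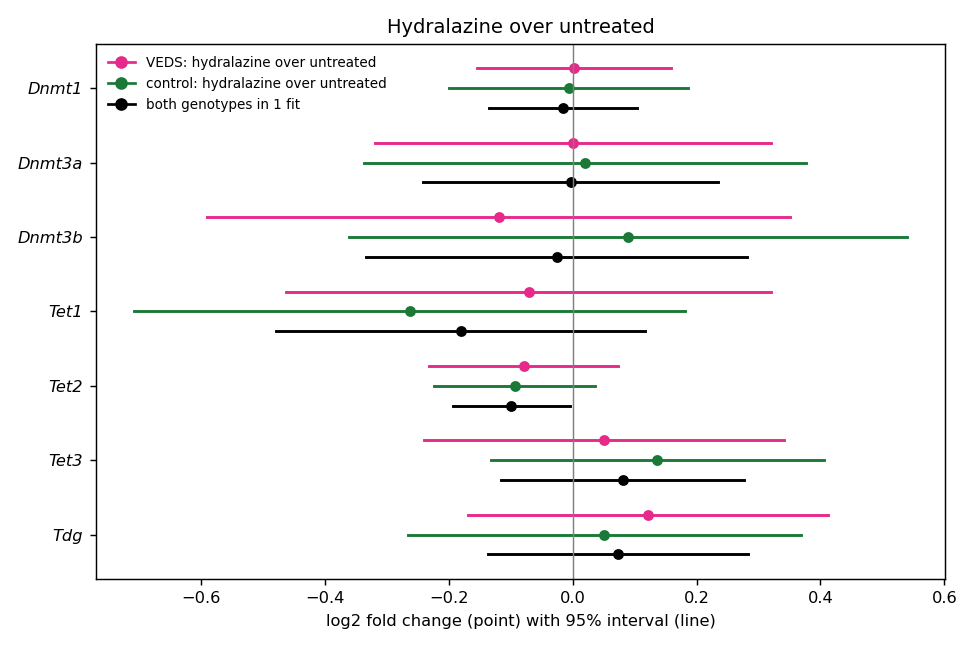
Log2 fold change of hydralazine over untreated (point) with its 95% interval (line) for each member, in VEDS aortas, in control aortas and with both genotypes in 1 fit. The joint estimates run from -0.18 for *Tet1* to 0.08 for *Tet3*, and only the joint *Tet2* interval (upper end -0.0049) leaves out 0.

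The effect of hydralazine in VEDS was set against that in controls through an interaction term, which called 0 of 13407 genes (0%) and 0 of 7 members, with 440 genes at an unadjusted p under 0.05. The difference, VEDS minus control, was -0.00018 on the log2 scale for *Dnmt1* (95% interval -0.24 to 0.24) and -0.03 for *Dnmt3a* (-0.51 to 0.45). *Dnmt3b* had a negative estimate in VEDS (-0.12) and a positive one in controls (0.09), with a difference of -0.22 (-0.84 to 0.40). These intervals were wide, so differences of moderate size between genotypes were not detectable here.

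The genotype itself was compared next, and *Dnmt1* had the smallest p of the 7 members. Untreated VEDS aortas averaged 43.8 ± 3.52 CPM of *Dnmt1* and untreated control aortas 40.2 ± 4.84 CPM (SD, n = 6 each). With hydralazine, VEDS aortas averaged 43.5 ± 3.85 CPM and control aortas 39.9 ± 4.00 CPM (SD, n = 6 each). Over both treatments *Dnmt1* was estimated 9.01% higher in VEDS (0.357% to 18.4%), with an unadjusted p of 0.0416 and an adjusted p of 1.00 by edgeR, so it was not called. *Dnmt3a* (-1.43%, -16.4% to 16.2%) and *Tet2* (1.82%, -4.63% to 8.71%) differed by less than their spread. For *Dnmt3b* the estimate was -11.4% (-28.4% to 9.72%). None of the 7 members was called for genotype, against 0 of 12976 genes (0%) in untreated, 0 of 12966 (0%) in hydralazine and 0 of 13235 (0%) in all aortas. At an unadjusted p under 0.05 there were 394, 602 and 494 genes in these fits, and DESeq2 called 0, 4 and 1.

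Aortas with a receptor antagonist on top of hydralazine had lower estimates of most members than VEDS aortas without one, and again no member was called. Against hydralazine VEDS these directions depended on the model. In HB, *Dnmt1*, *Dnmt3a*, *Dnmt3b* and *Tet1* were at -0.06, -0.17, -0.31 and -0.28 on the log2 scale, but at 0.15, 0.44, 0.09 and 0.29 with adipocyte and hepatocyte scores as covariates. *Dnmt3a* then had an unadjusted p of 0.0152 and an adjusted p of 0.204 by edgeR. In HS, *Dnmt3a*, *Dnmt3b* and *Tet1* were at -0.29, -0.03 and -0.24, but at 0.03, 0.55 and 0.52 with these scores. Summed adipocyte markers were at 253 to 687 CPM in HB and 371 to 955 CPM in HS. They were at 304 to 915 CPM in hydralazine VEDS and 671 to 1338.5 CPM in untreated VEDS aortas. Brown adipocyte markers were at 212 to 456 CPM in HB and 188 to 454 CPM in HS. These were at 223 to 770 CPM in hydralazine VEDS and 481 to 1257 CPM in untreated VEDS aortas. The part of these sums in the members' values was not tested. *Dnmt1* was at 41.8, 37.3 and 27.7 CPM in HS replicates 1, 2 and 3, and at 42.4, 43.1 and 40.9 CPM in the HB aortas, against 39.0 to 49.4 CPM in hydralazine VEDS and 38.4 to 47.0 CPM in untreated VEDS aortas. HS replicate 3 had the lowest *Dnmt1* of all 30 libraries, and the other HS and all HB libraries lay within or near the range of the other VEDS groups. HS was estimated at -19.5% against untreated VEDS (-33.9% to -1.85%) and at -18.3% against hydralazine VEDS (-33.0% to -0.350%). By edgeR these had unadjusted p-values of 0.0350 and 0.0468, and adjusted p-values of 0.414 and 0.364. Without HS replicate 3 the log2 fold changes against these groups were -0.15 and -0.13, instead of -0.31 and -0.29. That library also had the highest *Hspa1b*, a heat shock gene, at 709 CPM against at most 225 CPM in any library outside HS, and its part in the *Dnmt1* value was not tested.

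*Dnmt3a* was at 132, 144 and 135 CPM in HS and at 175, 128 and 146 CPM in HB aortas, against 135 to 197 CPM in hydralazine VEDS and 126 to 223 CPM in untreated VEDS aortas. The HS libraries lay below the medians of both these groups, and HB replicate 1 lay above them. These medians mix the sides of the *Col3a1* gap. Below the gap, where all HS libraries lay, *Dnmt3a* was at 135 to 147 CPM in hydralazine VEDS and 126 to 155 CPM in untreated VEDS aortas. The *Dnmt3a* estimates were -19.5% for HS (-38.2% to 4.86%) and -11.7% for HB (-33.3% to 16.9%) against untreated VEDS. *Dnmt3b* was at 4.59, 1.50 and 3.33 CPM in HB and at 4.96, 2.90 and 3.46 CPM in HS, a spread that covered most of the range of the other groups. *Tet1* was at 78.1, 59.6 and 104 CPM in HB and at 91.4, 103 and 52.4 CPM in HS, also as wide as the 6-library groups. *Tdg* was at 21.8, 19.3 and 18.6 CPM in HB and at 20.4, 20.6 and 15.3 CPM in HS, against 20.7 to 25.8 CPM in hydralazine VEDS aortas. For *Tdg* in HS against hydralazine VEDS the estimate was -18.1% (-32.8% to -0.222%, an unadjusted p of 0.0479 and an adjusted p of 0.366 by edgeR), and without HS replicate 3 the log2 fold change was -0.15 instead of -0.29. For *Tet2* and *Tet3* the 3 HS libraries did not overlap the 3 HB libraries. The share of all genes without such overlap was not counted, so this does not set these members apart. Between HS and HB 0% of all genes were called. *Tet2* was at 92.9, 95.8 and 97.8 CPM in HS, all above the 91.9, 86.7 and 88.3 CPM of HB, but its difference of 7.77% (-4.99% to 22.3%) had an unadjusted p of 0.208 and an adjusted p of 0.812 by edgeR. *Tet3* was at 68.4, 61.9 and 68.2 CPM in the 3 HS libraries, all below the 82.0, 76.9 and 76.1 CPM of the 3 HB libraries. The *Tet3* difference was -15.1% (-26.3% to -2.23%), with an unadjusted p of 0.0281 and an adjusted p of 0.702 by edgeR, and 6.68% of all genes had an unadjusted p under 0.05 in that fit.

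The counts of 0 members called stood beside small counts over all genes by edgeR and larger ones by DESeq2. Against untreated VEDS, 54 of 13204 genes were called for HB (0.409%, 28 higher and 26 lower) and 41 of 13276 for HS (0.309%, 7 higher and 34 lower). Against hydralazine VEDS, 2 of 13266 were called for HB (0.0151%) and 0 of 13304 for HS (0%), and for HS against HB 0 of 12800 were called (0%). The 2 genes of HB against hydralazine VEDS, named after their values were seen, were *Mup15* and *Sult2a7*, both higher in HB. At an unadjusted p under 0.05 there were 1805 genes for HS against hydralazine VEDS and 855 for HS against HB. DESeq2 called 559 genes for HB and 288 for HS against untreated VEDS, 573 for HB and 52 for HS against hydralazine VEDS, and 37 for HS against HB, none of them a member. The HB and HS comparisons share their untreated and hydralazine libraries, so their estimates are not independent of each other. All 6 HB and HS libraries came from day 60 and lay below the *Col3a1* gap, whereas 3 of 6 libraries lay above it in hydralazine VEDS and 3 of 6 in untreated VEDS aortas, so the added antagonist and the mix of ages cannot be told apart. The 25 cell cycle genes summed to a median of 201 CPM (196 to 254) in HB and 202 CPM (190 to 230) in HS. The median was 279.6 CPM (192.11 to 430.98) in hydralazine VEDS and 259.9 CPM (170.39 to 360.57) in untreated VEDS aortas. The HB and HS ranges overlapped both of these. The part of the cell cycle genes in the members' values was not tested by that sum. With a cell cycle score as covariate, *Dnmt3a* in HB against hydralazine VEDS was at 0.01 on the log2 scale instead of -0.17.

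**Figure D4:**
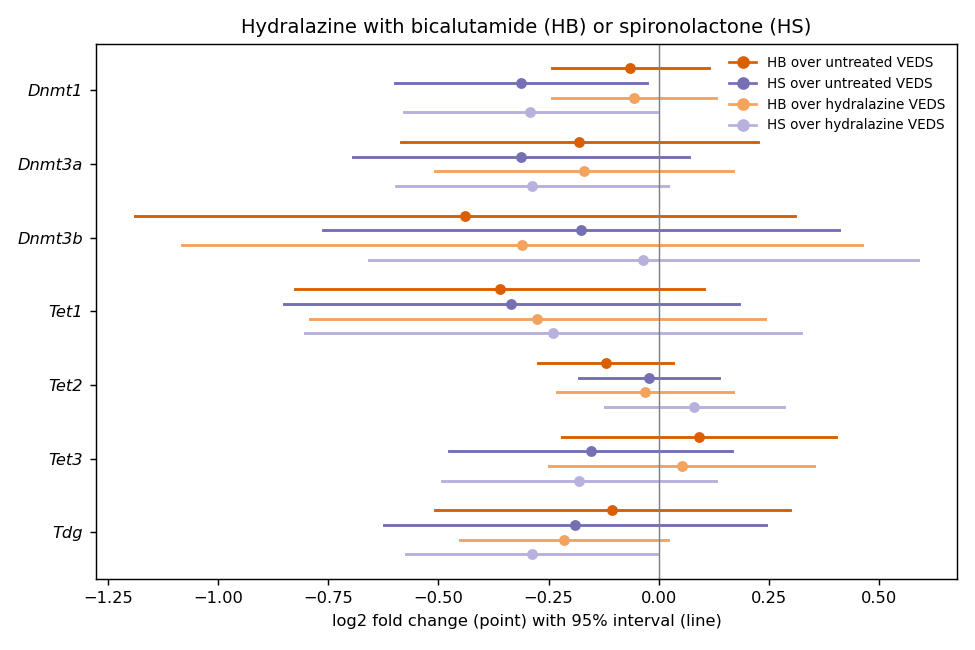
Log2 fold change (point) with its 95% interval (line) of each member for HB and HS, each over untreated VEDS and over hydralazine VEDS aortas (n = 3 against 6). The *Dnmt1* estimates for HS, -0.31 and -0.29, are the lowest for that gene, and the *Dnmt3b* intervals are the widest.

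No partner of these enzymes was called with hydralazine either. Among 8 partners of the methyltransferases, 7 passed the low-count filter in the joint fit, 2 with positive and 5 with negative estimates and 0 called, at a median log2 fold change of -0.03 against -0.01 over all genes. *Pcna*, the replication clamp that brings *Dnmt1* to new DNA, had an estimate of -0.08 ± 0.08 (SE), and *Dmap1*, a *Dnmt1* binding protein, -0.05 ± 0.09. *Uhrf1*, which recruits *Dnmt1* to hemimethylated CpG, was present at only 0.466 to 6.16 CPM (median 2.00), while its paralogue *Uhrf2* was at 45.7 to 68.2 CPM. *Dnmt3l*, the cofactor of new methylation in germ cells, had a count in 8 of 30 libraries and was not tested. Among 8 readers of methylated CpG, 5 estimates were positive and 3 negative, with 0 called, and those with the smallest p were the zinc finger readers *Zbtb38* (0.14 ± 0.06 SE, adjusted p = 0.406) and *Zbtb33* (-0.09 ± 0.05 SE, adjusted p = 0.488).

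Genes that act with the TET enzymes and downstream of them were not called. Of 9 TET partners and cofactor genes, 4 were positive, 5 negative and 0 called, with *Gadd45b*, a stress gene linked to demethylation, at 0.38 ± 0.17 (SE, adjusted p = 0.417). Of 9 base excision repair genes, 7 were tested and 0 called. The uracil glycosylase gene *Smug1* was at -0.16 ± 0.08 (SE, adjusted p = 0.450) and *Parp1*, a strand break sensor, at 0.08 ± 0.04 (SE, adjusted p = 0.482).

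The methyl donor cycle, which makes S-adenosylmethionine for the methyltransferases, had mostly negative estimates in the joint fit, with 9 of 11 genes negative, 2 positive and 0 called (median -0.13). Over all genes of that fit, 45.9% of estimates were positive, at a median of -0.01. *Mat2a*, the subunit that makes S-adenosylmethionine outside the liver, was at -0.13 ± 0.06 (SE, adjusted p = 0.396), and *Mat2b*, its regulatory subunit, at -0.08 ± 0.04 (SE, adjusted p = 0.409). In the separate fits the list ran in opposite directions, with 9 of 11 estimates positive in VEDS (median 0.11) and 8 of 11 negative in controls (median -0.27), and the interaction called 0 of 11. Over all genes, 52.7% of estimates were positive in VEDS and 52.3% in controls, at a median of 0.008 in each. Part of the list, such as *Gnmt* and *Bhmt*, is strongest in liver, and summed hepatocyte markers also ran in opposite directions. They were at 1936 to 12398 CPM (median 4961) in hydralazine VEDS aortas, against 96.9 to 16115 CPM (median 2226) in untreated VEDS aortas. In controls they were at 580 to 11368 CPM (median 1789) with hydralazine, against 1015 to 10244 CPM (median 7983) without. These ranges overlapped widely, and the part of the markers in the list was not tested.

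Genes whose silencing depends on DNA methylation were not called with hydralazine. Of 15 germline genes kept off by promoter methylation, 14 were too low to test, and of these 4 (*Mael*, *Taf7l*, *Tex101* and *Rpl10l*) had no count in any of the 30 libraries. *Brdt*, a testis bromodomain gene and the only one tested, was at 0.567 to 2.45 CPM (median 1.89), with a joint estimate of -0.13 ± 0.17 (SE, adjusted p = 0.830). Of 20 imprinted genes, 18 were tested in the joint fit, 11 positive and 7 negative, with 0 called. *Igf2r*, a receptor that clears IGF2, was at 0.12 ± 0.05 (SE, adjusted p = 0.400), and *Kcnq1ot1*, a long RNA of an imprinted cluster, at -0.09 ± 0.05 (SE, adjusted p = 0.485). The 25 cell cycle genes had 16 positive and 9 negative estimates with 0 called, and *Cdc6* and *Mcm3*, both of replication licensing, were at -0.37 ± 0.26 and -0.17 ± 0.13 (SE, adjusted p = 0.632 and 0.665).

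Although no member was called between groups, the members varied within groups. Within the hydralazine and untreated groups *Dnmt3a* spanned up to 1.82-fold between libraries and *Tet1* up to 2.14-fold, against at most 1.34-fold for *Tet2*. In the plot of members against *Col3a1*, the *Dnmt3a* and *Tdg* values at high *Col3a1* lay mostly above those at low *Col3a1*, while *Tet2* covered much the same range on both sides of the gap. No test was made of this, since the sides were seen in the data. Within the sides, the Spearman rho with *Col3a1* was 0.62 above and 0.33 below the gap for *Dnmt3a*, -0.23 and 0.72 for *Tdg*, and 0.06 and -0.38 for *Tet2*. Because the libraries fell into these clusters, correlations between members are given only within each side and as a description, over libraries that share sequencing depth and scaling. Over the 15 pairs that leave out *Tet2*, the median Spearman rho was 0.03 (-0.50 to 0.69) among the 12 libraries above the gap and 0.19 (-0.12 to 0.56) among the 18 below it. Over the 6 pairs with *Tet2* it was 0.24 (-0.18 to 0.67) above and -0.03 (-0.40 to 0.28) below the gap. The closest pair above the gap was *Dnmt3a* with *Tet3* (rho 0.69, against 0.25 below), and the closest below it was *Dnmt1* with *Tdg* (rho 0.56, against 0.19 above). No label tells what separates the sides.

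**Figure D5:**
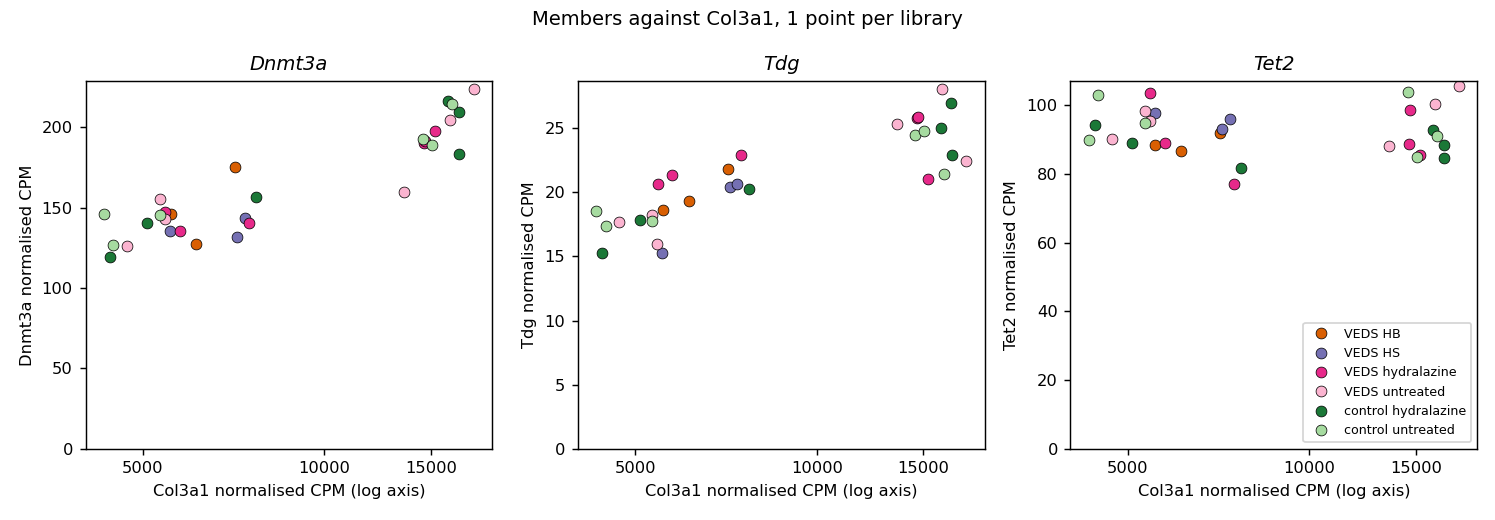
Normalised CPM of *Dnmt3a*, *Tdg* and *Tet2* (vertical axes, from 0) against *Col3a1* CPM (log axis), 1 point per library, coloured by group. No library lies between 7710 and 13568 CPM of *Col3a1*, and each hydralazine and untreated group has 3 libraries on each side.

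Among 13534 genes at a mean of at least 1 CPM, the genes most like each member over all 30 libraries differed by member. Their ranking used Spearman rho over all libraries, and the values given here are those within the sides, above and below the gap. Both rest on the same 30 libraries, so the values are not independent of the ranking. At a rho of at least 0.70 over all libraries there were 338 genes for *Tdg*, 166 for *Dnmt3a* and 148 for *Tet1*. There were 97 for *Tet3*, 24 for *Dnmt1*, 4 for *Dnmt3b* and 2 for *Tet2*. The 5 closest genes of each member follow in order of rank. *Dnmt3a* was closest to *Pdgfrl* (0.79 and 0.60), a PDGF receptor-like gene, *Lamc1* (0.73 and 0.54), a laminin chain, *Mrc2* (0.33 and 0.67), a collagen uptake receptor, *Tyro3* (0.48 and 0.66), a receptor tyrosine kinase, and *Agrn* (0.83 and 0.58), a heparan sulphate proteoglycan. *Tdg* was closest to *Jpt2* (0.51 and 0.82) and *Surf4* (0.48 and 0.89), a cargo receptor of the secretory pathway. Then came *Kdelr2* (0.66 and 0.80), *Kdelr3* (0.13 and 0.79) and *Serpinh1* (0.27 and 0.77). *Dnmt1* was closest to the mechanosensitive channel gene *Piezo2* (0.71 and 0.82) and to *Psat1* (0.87 and 0.70), of serine synthesis. Next were *Sec61a1* (0.83 and 0.72), *Lrrc59* (0.65 and 0.67) and *Ap2a2* (0.45 and 0.81). *Tet1* was closest to *Ky* (0.69 and 0.75), then *Marcks* (0.40 and 0.55), *Nrep* (0.38 and 0.48), *Dpy19l1* (0.12 and 0.55) and *Phgdh* (0.31 and 0.56). *Tet2* was closest to *Mtx3* (0.85 and 0.84), then *Zfp763* (0.90 and 0.48), *Usp3* (0.78 and 0.63), *Mtcp1* (0.81 and 0.64) and *Zfp266* (0.59 and 0.74). *Tet3* was closest to *Ltbp3* (0.73 and 0.85), a TGF-β binding protein of the matrix. After it came *Soga1* (0.69 and 0.75), *Zfp469* (0.58 and 0.77), *Meg3* (0.80 and 0.74) and *Slc37a3* (0.66 and 0.67). *Dnmt3b*, at 9 to 48 counts, was closest to *Dtl* (0.24 and 0.53), then *Ibtk* (0.41 and 0.43) and *Armcx4* (0.09 and 0.48). *Amigo3* (0.22 and 0.35) and *Igf2* (-0.007 and 0.45) followed, and such values in sparse counts carry little weight.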

How the data were processed

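Bulk RNA-seq of 30 aortas was analysed, with groups taken from the genotype and treatment labels. The deposited expected counts per gene were made by the authors with RSEM on STAR alignments to mm39, using strand, and the deposited TPM came from the same RSEM run. Of the values, 97.6% were whole within 1e-06. Expected counts were rounded, genes filtered with filterByExpr, libraries scaled by TMM and groups compared with edgeR 4.0.16 (R 4.3.3) by its quasi-likelihood F-test, with Benjamini-Hochberg adjustment over all genes tested and a call at an adjusted p of 0.05 or less. Intervals are 95% from the fitted SE. P-values set the difference between groups against the spread between aortas within a group. In the hydralazine and untreated groups that spread includes any difference between day 30 and day 60. The code was tested on simulated counts. Age is not labelled per library and the batch label is 1 throughout, so neither was modelled. The paper describes randomised batches of aortas during processing, which that label does not tell apart. The study compared pairs of groups with other software, and its own comparisons were not used.

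The 7 members and the lists were chosen with earlier results of these data known. All members are named, and from each list those called with hydralazine or, where none was, the 2 with the smallest p in the fit over both genotypes. The 5 genes most like each member are named. A gene that this rule selects is not reported here. The *Col3a1* gap was chosen after seeing the data. Alternatives were other size factors, DESeq2 1.42.0, other low-count filters, 1 fit of all libraries, 1 surrogate variable (sva 3.50.0), covariate scores and leaving out libraries. RefSeq promoters were of GRCm38.p6 and no coordinates were converted.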

Additional observations from a re-analysis of the deposited data

Results flagged for a closer look

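*Tet3* in untreated control aortas had 1 library apart from the rest of its group, replicate 6 at 83.1 CPM against 61.3 to 67.6 CPM in the other 5. Its distance to the nearest library was 0.709 of the range of the group, past the critical value of 0.625 for 6 libraries. Of 28 sets of 6 libraries examined, 7 members in 4 groups, this was the 1 that passed, and chance passes about 1 in 20.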

How the results depend on the processing

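No member was called in any of 264 refits, 102 with another setting and 162 without 1 library, some of which are the same fit, and the smallest adjusted p of a member was 0.0930, for *Tet1* over both genotypes with the cell cycle score as covariate. No paired analysis was possible because the labels carry no replicate numbers. Of 714 member estimates under other settings, 68 changed sign, 23 of them by more than 1 SE of the value reported, and without 1 library 141 of 1134 did, 1 of them by more than 1 SE (*Dnmt3a* in HS against HB, -0.23 to 0.0039, the upper end without HB replicate 1). With adipose and liver scores as covariates, VEDS against control gave -0.043, -0.069 and -0.13 for *Tet2*, *Tet3* and *Tdg* when untreated and -0.052 for *Tet2* with hydralazine, HB against untreated VEDS gave 0.084 for *Tdg*, HB against hydralazine VEDS gave 0.15, 0.44, 0.087 and 0.29 for *Dnmt1*, *Dnmt3a*, *Dnmt3b* and *Tet1*, and HS against hydralazine VEDS gave 0.033, 0.55 and 0.52 for *Dnmt3a*, *Dnmt3b* and *Tet1*. With 1 surrogate variable, HB against hydralazine VEDS gave 0.063, 0.23 and 0.15 for *Dnmt1*, *Dnmt3a* and *Tet1*, and HS against hydralazine VEDS 0.33, 0.24 and 0.057 for *Dnmt3b*, *Tet1* and *Tet3*. With the cell cycle score, HB against hydralazine VEDS gave 0.048 and 0.012 for *Dnmt1* and *Dnmt3a*, and HS against hydralazine VEDS 0.26, 0.10 and 0.062 for *Dnmt3b*, *Tet1* and *Tet3*. The cause of these reversals was not tested.

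Counts over all genes moved more. DESeq2 called 2, 3 and 56 genes for hydralazine in VEDS, in controls and over both, 4 and 1 for genotype with hydralazine and over both treatments, 559 and 288 for HB and HS against untreated VEDS, 573 and 52 for HB and HS against hydralazine VEDS, and 37 for HS against HB. Over both genotypes hydralazine called 2 in 1 fit of all libraries, 8 with adipose and liver scores and 230 with the cell cycle score. That comparison called 0 without hydralazine control replicate 5, the library of this fit that stands apart. Libraries said to stand apart were picked by name, without a stated rule. Genotype with hydralazine called 2 with no filter, 2 at a mean of at least 1 CPM and 2 in 1 fit of all libraries, and over both treatments 1 in that fit. HB and HS against untreated VEDS called 213 and 72 with a surrogate variable, 31 and 119 with adipose and liver scores, 104 and 26 with the cell cycle score and 2 and 1 without the library of each that stands apart (HB replicate 2 and HS replicate 3), and HS called 141 in 1 fit of all libraries. HB and HS against hydralazine VEDS called 25 and 7 with a surrogate variable, 105 and 6 with adipose and liver scores, 1 and 2 in 1 fit of all libraries, and HB 6 with the cell cycle score and 1 without HB replicate 2.

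Without 1 library, calls were 0 to 1 for hydralazine in controls (1 without hydralazine control replicate 1), 0 to 5 over both genotypes (5 without that same library, 2 without hydralazine VEDS replicate 2 or 5, untreated VEDS replicate 5 or 6 or untreated control replicate 3), 0 to 2 and 0 to 4 for genotype with hydralazine and over both treatments (the upper ends without hydralazine VEDS replicate 6 and untreated control replicate 5), 2 to 529 for HB and 0 to 104 for HS against untreated VEDS (both upper ends without untreated VEDS replicate 1, and every other left-out library lowered both), 1 to 56 for HB against hydralazine VEDS (56 and 36 without hydralazine VEDS replicates 4 and 6, 1 without HB replicate 1 or 2) and 0 to 2 for HS against HB (2 without HS replicate 1). *Tet2* over both genotypes had an unadjusted p of 0.0129 to 0.0798 across left-out libraries. Depth limits *Dnmt3b*, at 9 to 48 counts, most, and the design limits HB and HS, with 3 libraries each.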
